A study of Apis mellifera with 20 samples.

Results

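A block of neighbouring gene models on scaffold Group14.10 of the honeybee (Apis mellifera) genome was examined, comprising GB43727, GB43716, GB43715, GB43728 and GB43713. The 5 models, of 15314 in the deposited tables, were chosen by their input FPKM values, since an earlier analysis of the same tables found all of them higher in worker than in queen larvae of the third instar. That comparison is therefore only described here, without a test. The study measured RNA abundance and N6-methyladenosine (m6A) pulldown in larvae of the first instar (L1), which can still become either caste, and in worker and queen larvae of the third instar (L3) and the fifth (L5). Each of these 5 kinds of larvae had 2 libraries of RNA immunoprecipitated with an m6A antibody (IP) and 2 input libraries of fragmented polyadenylated RNA made without that step, 20 libraries in all. The colonies were kept in Beijing by standard beekeeping, and the labels name no mutation or drug. Neither the colony, the number of larvae per library nor the tissue make-up is stated, so the p-values speak of the scatter among these libraries alone, and it may be technical.

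Queens and workers are both female and arise from alike eggs. A diet that differs from early larval life on directs a larva to one caste or the other, and gene expression in the castes diverges during larval growth. The m6A mark is a methylated form of adenosine within messenger RNAs, set by a methyltransferase complex and bound by reader proteins that affect splicing, translation and decay. An antibody pulldown enriches fragments that carry the mark, and the IP level of a gene is read against its input level. None of the libraries was a pulldown without the antibody, so IP over input is not a measured m6A level.

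All values are FPKM, which by name are fragments mapped to a model divided by its length and by the library's mapped fragments. How they were computed is not given, and input levels are compared between models on that reading. IP levels also depend on how strongly each model was pulled down. Read depth is unknown. Input libraries summed to 529489 to 674587 FPKM and IP libraries to 512177 to 891050 FPKM. Between 4292 and 5430 models stood at 0 in an L5 input library, compared with 2993 to 3822 in an input library of L1 or L3. The labels give no batch, so the instar cannot be told apart from how its libraries were made. In bulk larval RNA, fewer cells of a type and less RNA per cell cannot be told apart either.

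The block runs from 254907 to 308870 on Group14.10, in the coordinates of the deposited tables, whose genome build is not given in the sources used here. GB43727 (254907 to 256505, plus strand) comes first, followed by GB43716 (260895 to 262490, minus strand), GB43715 (264534 to 266057, minus strand), GB43728 (269141 to 270694, plus strand) and GB43713 (307338 to 308870, minus strand). The first 4 members lie 2043 to 4389 bases apart, and 36643 bases separate GB43728 from GB43713. The members are alike in size, with genomic spans of 1524 to 1599 bases, a range that holds 214 of the 15314 models (1.40%). None of the 5 IDs matched the RefSeq gene table of assembly Amel_HAv3.1, so no name or function is given for any member.

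The run of members is not unbroken. GB43714 (266796 to 267585, minus strand), between GB43715 and GB43728, was listed at 0 in 9 of 20 libraries and reached 1.45 FPKM at most. GB43717 (233790 to 259723, minus strand) covers the whole 1599 bases of GB43727 on the other strand. The library kit does not mark strand, so reads of GB43727 and GB43717 cannot be told apart where they overlap. The other 4 members overlap no model.

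On the deposited FPKM GB43727 was near its L1 level in queens and above it in workers. At L1 it had 17.7 and 18.0 FPKM in input. L3 workers had 163 and 144 FPKM, against 19.0 and 14.9 FPKM in L3 queens. L5 workers had 79.9 and 74.2 FPKM, against 14.3 and 22.2 FPKM in L5 queens. The worker libraries of each instar thus lay above both queen libraries, and the 3 other kinds of larvae all lay between 14.3 and 22.2 FPKM. GB43717, which encloses it, never exceeded 7.73 FPKM in any library.

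GB43716 was already abundant at L1, with 316 and 306 FPKM in input. L3 workers had 521 and 535 FPKM, against 141 and 199 FPKM in L3 queens. At L5 it had 101 and 82.2 FPKM in workers, against 14.3 and 29.7 FPKM in queens. Here the L1 level lay between those of the castes at L3, and both castes were below it at L5.

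GB43715 was the least abundant member at L1 and L3. It had 5.78 and 6.64 FPKM at L1. L3 workers had 19.8 and 18.7 FPKM, against 8.05 and 7.24 FPKM in L3 queens. L5 workers had 15.4 and 18.1 FPKM, against 26.6 and 17.2 FPKM in L5 queens. The castes were apart at L3 and overlapped at L5.

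GB43728 stood out by its level at L5. It had 14.7 and 17.4 FPKM at L1. At L3 workers had 75.1 and 65.3 FPKM, against 22.8 and 32.0 FPKM in queens. At L5 workers had 215 and 341 FPKM, against 84.3 and 125 FPKM in queens. Workers lay above queens in both instars, and both castes were above L1 at L5.

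GB43713 was the most abundant member at L3. At L1 it had 138 and 136 FPKM. L3 workers had 989 and 948 FPKM, against 228 and 277 FPKM in L3 queens. At L5 the castes came close, with 67.2 and 80.8 FPKM in workers, against 41.3 and 62.3 FPKM in queens. On the deposited FPKM the L3 worker libraries thus stood above those of every other kind of larvae, and all 4 L5 libraries were below those of L1. After the scaling described below, L5 worker input 2 was at 103, above both L1 inputs at 87.7 and 97.1.

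**Figure D1:**
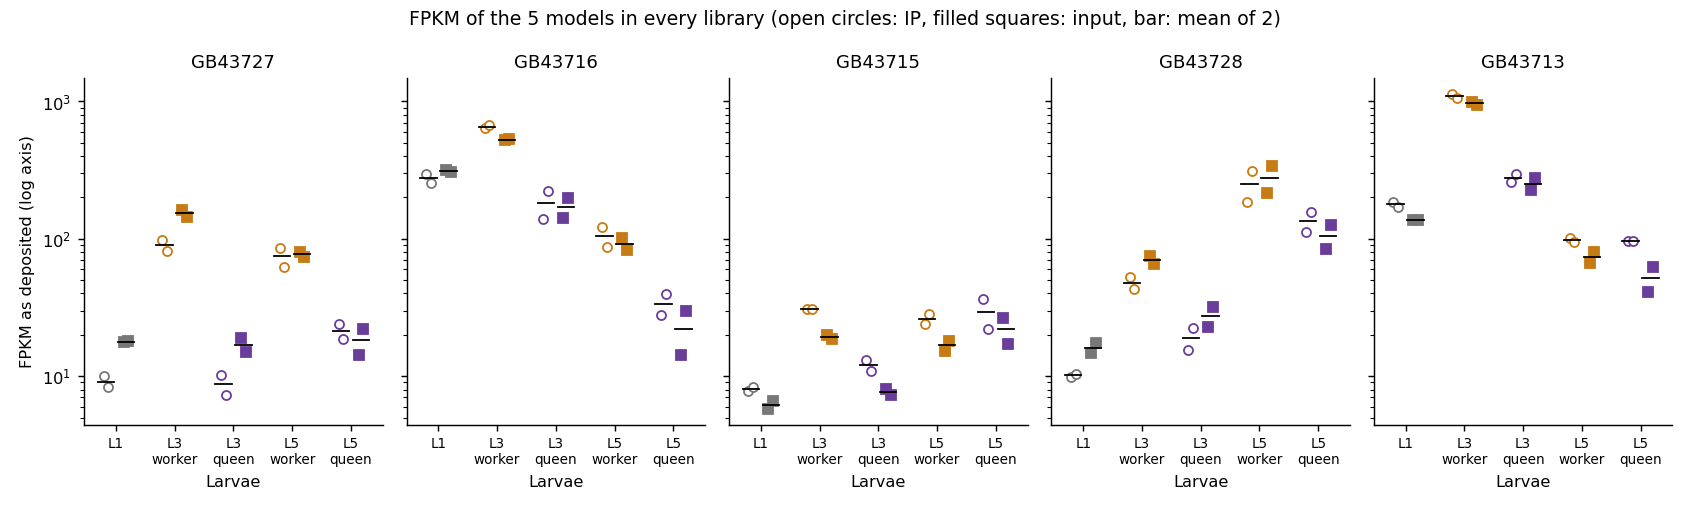
FPKM as deposited (log axis) of each model in every library of the 5 kinds of larvae, with open circles for IP, filled squares for input and a bar at the mean of 2 libraries. L3 workers stand above L3 queens in every panel, and GB43728 is highest in L5 workers. The castes overlap at L5 for GB43715, and for GB43713 in IP only.

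The kinds of larvae were ordered by the mean input level after scaling, which divides each library by a median-of-ratios factor so that directions are relative to the typical gene model. L3 workers came first for GB43727 at 207 ± 24.1, for GB43716 at 711 ± 6.49 and for GB43713 at 1304 ± 76.2 scaled FPKM (SD, n = 2). For these 3 models no L3 worker library overlapped the next kind. L3 workers also headed the order of GB43715, at 26.0 ± 1.77 scaled FPKM, but overlapped L5 queens at 24.5 ± 6.30, which in turn overlapped L5 workers at 19.97 ± 4.53 (SD, n = 2 each). GB43728 alone was headed by L5 workers, at 335 ± 142 scaled FPKM, followed by L5 queens at 119 ± 38.3, which overlapped L3 workers at 94.7 ± 12.03 (SD, n = 2 each). At the low end, L1 came last for GB43727, GB43715 and GB43728, and L5 queens came last for GB43716 and GB43713. Neighbours in these orders that overlapped were also L3 queens and L1 for GB43727, and L1 and L5 workers for GB43713.

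The make-up of the block differed between instars. In the 2 L1 inputs GB43716 held 64.2% and 63.2% of the summed FPKM of the 5 models. At L3 GB43713 was the largest component, with 55.9% and 55.4% in workers and 54.4% and 52.2% in queens. At L5 it was GB43728, with 45.0% and 57.1% in workers and 46.6% and 48.8% in queens. The leading model was thus the same in both castes at each instar, although the block sum was 1768 and 1711 FPKM in L3 workers, against 419 and 531 FPKM in L3 queens.

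**Figure D2:**
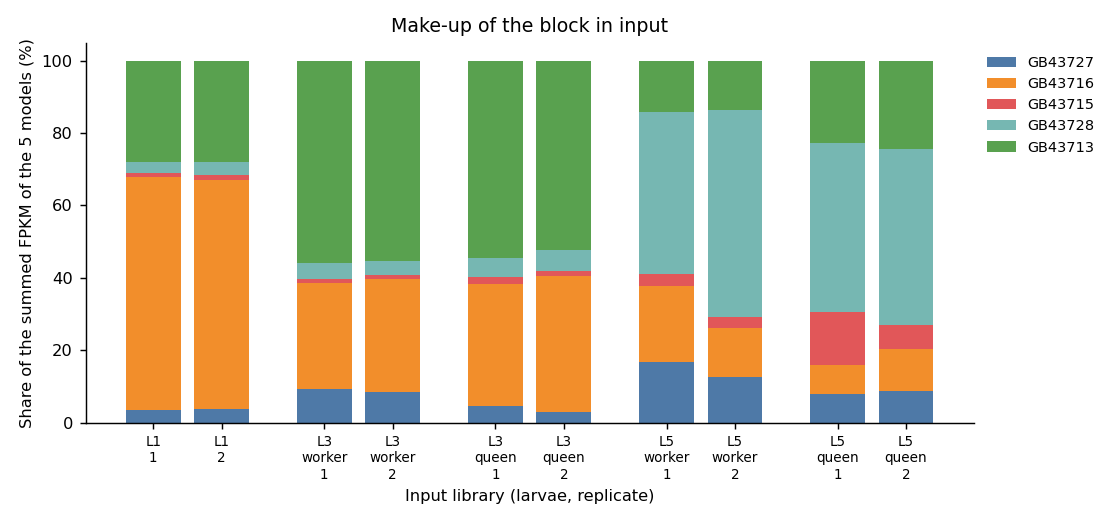
Share of the summed FPKM of the 5 models held by each model in the 10 input libraries, 1 bar per library. The largest share is that of GB43716 at L1, GB43713 at L3 and GB43728 at L5, in workers and queens alike.

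Since the model that led the block changed with the instar, the members were compared with each other over the 10 input libraries as a description, with no test. On log2(scaled FPKM + 1), Pearson's r was 0.87 between GB43715 and GB43728 and 0.85 between GB43716 and GB43713. It was 0.52 to 0.72 between GB43727 and each of the others, and -0.21 to 0.23 for the remaining pairs. The libraries fall into 5 kinds of larvae, so these values mostly reflect 5 points.

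The L3 contrast chose the members, so that all 5 were called higher in workers follows from the choice, and nothing is read from it beside the 4.84% of 10119 models that were called so. The log2 difference of workers minus queens was 3.81 for GB43727, 2.65 for GB43713, 2.36 for GB43716, 2.04 for GB43728 and 1.89 for GB43715. Without scaling, the median of all models moved by -0.60 in this comparison. The mean of deposited FPKM in workers was 9.06 times that in queens for GB43727 and 2.52 to 3.83 times for the others. Of the nearest fitted models that were not chosen, GB43717, which overlaps GB43727 and may share its reads, had a difference of 1.38, and GB43712, beyond GB43713, had one of 0.66. Further out, GB43710 had a difference of 2.56 at low levels of 5.24 and 4.40 FPKM in L3 workers, against 0.386 and 0.271 FPKM in L3 queens.

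The L3 pulldowns, separate libraries from the same kinds of larvae, were also higher in workers. An IP level depends on the RNA abundance that chose the members as well as on the pulldown, so these values are a description. IP levels of GB43727 were 98.8 and 81.6 FPKM in workers, against 10.2 and 7.35 FPKM in queens, a log2 difference of 3.79. For GB43713 they were 1130 and 1059 FPKM in workers, against 258 and 294 FPKM in queens, a log2 difference of 2.54. The other 3 members differed by 1.84 to 2.44 in IP. In all 5 the worker IP libraries lay above the queen IP libraries after scaling, which held for 32% of 10391 models, and nothing is read from this count because the same contrast chose the members.

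The castes were then compared at L5. The levels come from libraries that the choice of members did not use, but the SE and p-values pool the spread over all 5 kinds of larvae, including the L3 inputs that chose the members. GB43727, GB43716 and GB43728 were higher in L5 workers than in L5 queens, while GB43715 and GB43713 did not pass the test. Thus 3 of 5 members were called higher in workers, against 6.24% of the 10119 models tested. The scaled worker and queen values did not overlap, with workers higher, in 4 members, against 21.2% of models. GB43727 differed by 2.12 ± 0.24 (log2, SE, n = 2 and 2, limma adjusted p = 0.00197). GB43716 differed by 2.16 ± 0.33 (limma adjusted p = 0.00692) and GB43728 by 1.46 ± 0.35 (limma adjusted p = 0.0344). GB43713 had a difference of 0.60 ± 0.26 (limma adjusted p = 0.183), and GB43715 one of -0.28 ± 0.24 (limma adjusted p = 0.500). The median over the 5 members was 1.46, beside -0.02 over all models. With the L5 libraries fitted alone no member passed, at differences of 2.12, 2.16 and 1.46, with limma adjusted p of 0.0601 for GB43727, 0.0929 for GB43716 and 0.183 for GB43728. With a weight per library the limma adjusted p was 0.0589 for GB43716 and 0.257 for GB43728. The call of GB43728 was also lost (limma adjusted p 0.0506 to 0.121) without either L1 input, either L3 worker input, L3 queen input 2, L5 queen input 1 or L5 worker input 2, and without the filter on low values (limma adjusted p = 0.0501). Without L5 queen input 2, GB43713 reached a difference of 0.94 and a limma adjusted p of 0.0485.

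**Figure D3:**
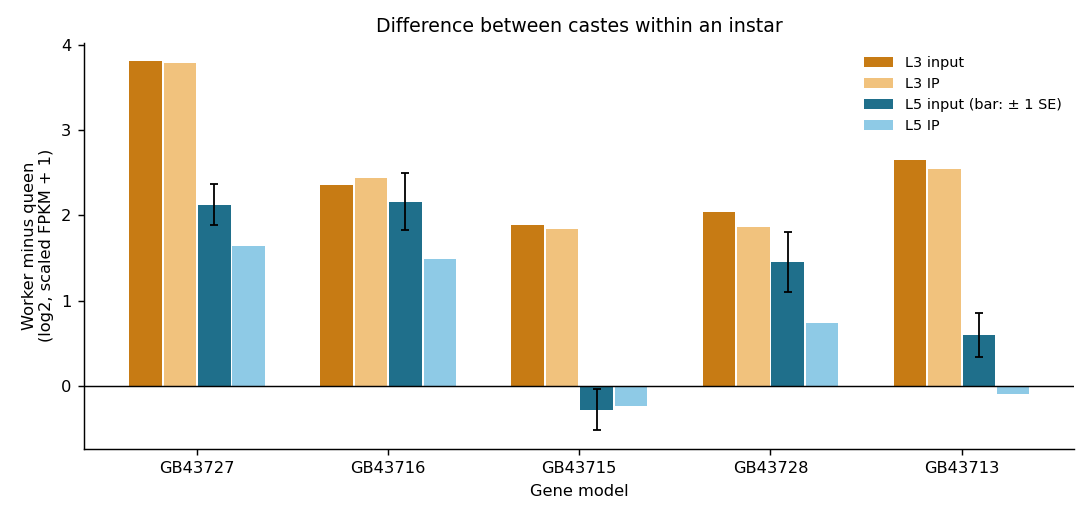
Log2 difference of workers minus queens in scaled FPKM + 1 for each model, at L3 and L5 and in input and IP, with 1 SE on the L5 input bars only. The L3 bars, from the contrast that chose the models, are 1.84 to 3.81 high, and at L5 only GB43727, GB43716 and GB43728 have input bars above 1.

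In the L5 pulldowns GB43727 had 86.3 and 62.8 FPKM in workers, against 23.9 and 18.6 FPKM in queens. GB43716 had 122 and 87.6 FPKM in workers, against 27.7 and 39.5 FPKM in queens. GB43728 had 187 and 311 FPKM in workers, against 111 and 156 FPKM in queens. After scaling, workers lay above queens without overlap in these 3 of 5 members, against 23% of 10391 models. GB43713 had 102 and 95.6 FPKM in workers, against 97.1 and 97.0 FPKM in queens, and GB43715 had 24.2 and 28.3 FPKM in workers, against 36.2 and 22.2 FPKM in queens. For these 2 models the deposited IP values of the castes overlapped.

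The surroundings of the block were examined along Group14.10, which holds 46 models, 32 of them in the expression fit. Of the 27 that are not members, 2 were called higher and 2 lower in L5 workers, and their median difference was 0.12. One of the 2 higher models was GB43717, which encloses GB43727. It had 7.73 and 2.34 FPKM in L5 workers and was listed at 0 in both L5 queen inputs, with a difference of 2.62 ± 0.44 (log2, SE, n = 2 and 2, limma adjusted p = 0.00922). Its reads cannot be told apart from those of GB43727 in the shared stretch, and their part in this difference was not tested. The L5 queen IP libraries were not at 0 for GB43717, with 1.04 and 2.74 FPKM, against 5.15 and 3.44 FPKM in L5 worker IP. The log2 difference of workers minus queens in IP was 0.83. Beside the block on the far side, GB43712 (337466 to 397307, minus strand) differed by 1.02 ± 0.37 (limma adjusted p = 0.121) and GB43710 (402410 to 403957, minus strand) by 0.86 ± 0.33 (limma adjusted p = 0.142), and neither passed. GB43711 (397562 to 399121, minus strand) reached 2.98 FPKM at most, GB43726 (237439 to 237663, plus strand) 4.98 FPKM, and GB43725 (231910 to 233862, plus strand) was listed at 0 in every library, so none of them was fitted. GB43711 and GB43710 span 1560 and 1548 bases and are the only 2 of the 41 other models of the scaffold whose span falls in the range of the members.

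**Figure D4:**
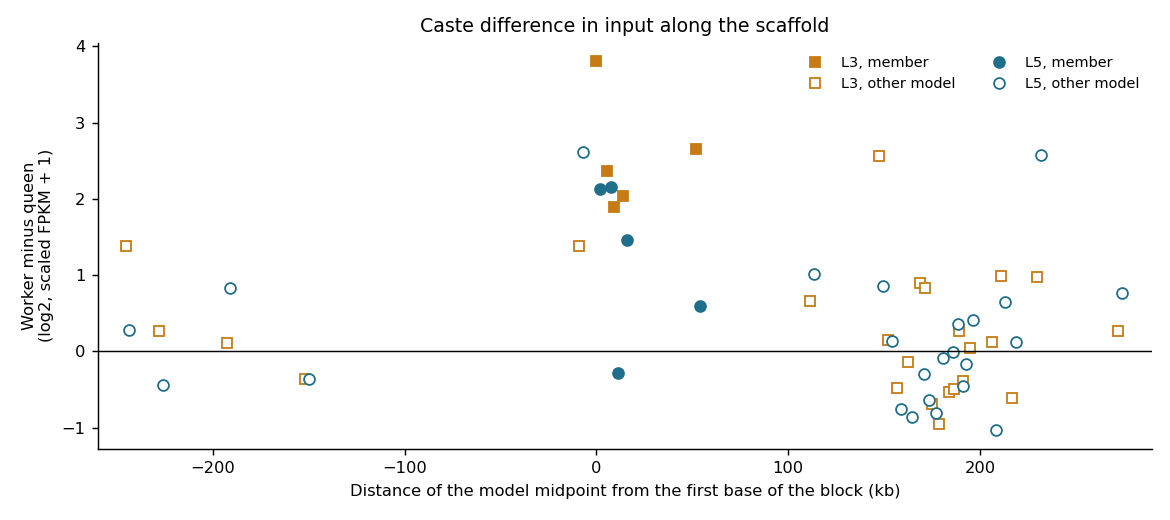
Log2 difference of workers minus queens in input at L3 (squares) and L5 (circles) against the distance of fitted models from the first base of the block, with members filled. Fitted models at 568 to 581 kb lie beyond the axis and are not shown. The L3 contrast chose the members, which lie at 1.89 to 3.81 there, and GB43710, not a member, lies at 2.56. At L5 the members spread from -0.28 to 2.16.

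Development was compared between L5 and L1, again with a spread pooled over all 5 kinds of larvae, the L3 inputs included. GB43728 and GB43715 rose in both castes. GB43728 rose by 3.31 ± 0.35 in queens (log2, SE, n = 2 and 2, limma adjusted p = 1.79e-04) and by 4.76 ± 0.35 in workers (limma adjusted p = 2.65e-05). GB43715 rose by 2.28 ± 0.24 in queens (limma adjusted p = 1.84e-04) and by 1.9996 ± 0.24 in workers (limma adjusted p = 3.52e-04). These 4 calls held under all 16 alternatives tried for each. GB43727 rose in workers, by 2.82 ± 0.24 (limma adjusted p = 5.44e-05). GB43716 went the other way and fell by 3.12 ± 0.33 in queens (limma adjusted p = 1.90e-04). Fitted on the L1 libraries and those of the L5 caste compared, without the L3 inputs, these 6 calls had limma adjusted p of 0.00136 to 0.00895.

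The remaining calls between L5 and L1 were close to the threshold or missed it. GB43727 in queens had a difference of 0.70 ± 0.24 (limma adjusted p = 0.0409), which was -0.0010 on the FPKM as deposited and 0.36 without L5 queen input 2. Its call was lost without either L1 input, either L3 input of either caste or L5 queen input 2 (limma adjusted p 0.0585 to 0.167), with a weight per library (0.0875) and with only L1 and L5 queens fitted (0.152). GB43716 in workers had a difference of -0.96 ± 0.33 (limma adjusted p = 0.0443), and its call was lost without either L1, either L3 worker or either L5 worker input (limma adjusted p 0.0687 to 0.165), with a pseudocount of 0.1 (0.0567) and without the filter on low values (0.0633). On the FPKM as deposited it was -1.76 (limma adjusted p = 0.00106), and with only L1 and L5 workers fitted it was -0.95 (limma adjusted p = 0.00874). GB43713 had differences of -0.68 ± 0.26 in queens (limma adjusted p = 0.0592) and -0.08 ± 0.26 in workers (limma adjusted p = 0.812). On the FPKM as deposited both passed, at -1.42 (limma adjusted p = 5.26e-04) and -0.88 (limma adjusted p = 0.00670). In queens GB43713 also passed without L5 queen input 2, at -1.01 (limma adjusted p = 0.0152). In workers its sign turned without L5 worker input 1, at 0.16. Of the 5 members, 3 were called higher and 1 lower in each caste, where 20.1% of all models were called higher and 27.3% lower in queens and 20.3% and 26.8% in workers. Without scaling the median of all models moved by -0.64 in queens and -0.70 in workers, so these directions are relative to the typical model.

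Between L1 and L3 and between L3 and L5 the values are a description, since the L3 libraries chose the members. From L1 to L3, the log2 difference of L3 minus L1 was 1.76 to 3.99 in workers for the 5 members, and -0.60 to 1.15 in queens. For L5 minus L3 it was 1.75 for GB43728 in workers and 2.33 in queens. GB43713 had -3.89 in workers and -1.83 in queens, and GB43716 had -2.72 and -2.51. GB43715 had -0.38 in workers but 1.79 in queens, and GB43727 had -1.17 in workers but 0.51 in queens.

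The pulldown was compared with input in the same larvae after scaling over all 20 libraries. GB43713 and GB43715 were enriched in IP at L1. GB43713 had 186 and 171 FPKM in IP, against 138 and 136 FPKM in input, so that IP minus input came to 1.02 ± 0.23 on the log2 scale (limma adjusted p = 0.00268, SE, n = 2 and 2). GB43715 had 7.82 and 8.28 FPKM in IP, against 5.78 and 6.64 FPKM in input, so that IP minus input came to 0.87 ± 0.26 (limma adjusted p = 0.0160). The other members had differences of 0.47 ± 0.33 for GB43716, -0.0088 ± 0.38 for GB43728 and -0.29 ± 0.23 for GB43727, with limma adjusted p of 0.270, 0.989 and 0.319. Thus 2 of 5 members were called higher in IP, where 23.9% of 10391 models were, and none lower, where 20.4% were. A share of this size among 5 models is not set apart from that background.

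Both L1 calls depended on the scaling. On the FPKM as deposited the median of all models moved by -0.54, the difference was 0.38 for GB43713 (limma adjusted p = 0.115) and 0.33 for GB43715 (limma adjusted p = 0.272), the sign of GB43716 turned, at -0.18, and GB43727 became lower in IP, at -0.90 (limma adjusted p = 0.00654). The call of GB43715 was also lost without L1 IP 2 (0.69, limma adjusted p = 0.125) and without L1 input 1 (0.72, limma adjusted p = 0.121). With same-numbered libraries treated as pairs, which the labels do not state, GB43716 passed at L1 (limma adjusted p = 0.0353).

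At L5 GB43713 in queens was the 1 member called in IP over input. It had 97.1 and 97.0 FPKM in IP, against 41.3 and 62.3 FPKM in input, and IP minus input came to 0.89 ± 0.23 on the log2 scale (limma adjusted p = 0.0494, SE, n = 2 and 2), where 2.49% of all models were called higher. The call was lost in 19 of 26 alternatives, among them leaving out any 1 library of L1 or L3, either L5 IP library of either caste or L5 queen input 1, and without the last the difference was 0.54 (limma adjusted p = 0.157). The other 4 members had differences of 0.20 to 0.62 in L5 queens. In L5 workers 0 of 5 members were called by limma, where 16.8% of all models were called in either direction. At an unadjusted limma p under 0.05 there were 0 of 5 members and 3342 of 10391 models. The members' differences ran from -0.40 for GB43728 to 0.40 for GB43715. With same-numbered libraries treated as pairs, which the labels do not state, both passed (limma adjusted p = 0.0191 and 0.0291). So did GB43716 in L5 queens (limma adjusted p = 0.0403).

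The caste difference in IP over input was tested at L5. It was -0.70 ± 0.33 for GB43713, -0.72 ± 0.53 for GB43728, -0.67 ± 0.46 for GB43716, -0.49 ± 0.32 for GB43727 and 0.04 ± 0.37 for GB43715 (log2, workers minus queens, SE, n = 2 libraries in each of 4 groups). By limma 0 of 5 members passed, with adjusted p of 0.581 to 0.992, where 0.106% of all models were called. Without adjustment 1 of them, GB43713, had a limma p under 0.05, as did 890 of the 10391 models. In this fit, which does not pair libraries, SE were 0.32 to 0.53 log2 units, and caste differences of these sizes were not detectable. With same-numbered libraries treated as pairs, which the labels do not state, no member passed either. The limma adjusted p was then 0.0707 for GB43728 and 0.187 to 0.924 for the others. At L3, as a description, the caste difference in IP over input was -0.16 to 0.09 for the 5 members.

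Per pair of IP and input libraries of the same number, the members fell on either side of equal levels at L1 and L3. The scaled IP level was 1.92 to 2.18 times input for GB43715 in the 6 pairs, 1.40 to 2.096 times for GB43713 and 1.31 to 1.60 times for GB43716. It was 0.829 to 1.00 times input for GB43728 and 0.706 to 0.832 times for GB43727. At L5 the ranges of the 4 pairs were wider for GB43727, at 0.719 to 1.76, and GB43713, at 1.01 to 2.48. They were also wider for GB43716, at 0.906 to 2.04, and GB43728, at 0.741 to 1.39. For GB43715 the scaled ratios at L5 were 1.17 to 1.43, below those of L1 and L3, but the deposited FPKM gave overlapping ratios of 1.29 to 1.57 at L5, against 1.25 to 1.65 at L1 and L3. The deposited ratios of GB43716 were below 1 in both L1 pairs, at 0.944 and 0.826, and in L3 queen pair 1, at 0.986. At L5 the scaled ratios of GB43728 were 0.741 and 0.776 in the worker pairs, against 1.39 and 1.13 in the queen pairs. Its deposited ratios there were 0.867 and 0.913 in workers, against 1.32 and 1.25 in queens. At L3 its scaled ratios were 0.866 and 0.829 in workers, against 0.896 and 1.00 in queens. That labels of equal number mean the same RNA is not stated.

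**Figure D5:**
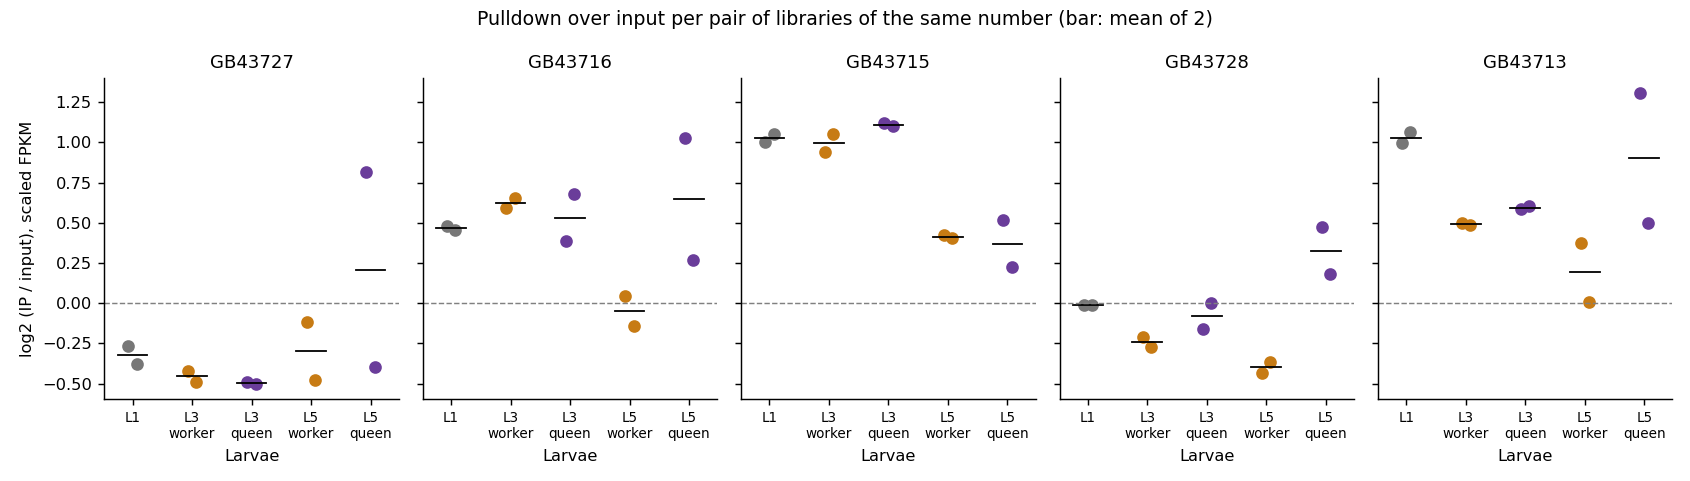
Log2 ratio of scaled FPKM in IP over input for each pair of libraries of the same number, with a bar at the mean of 2 pairs and a dashed line at equal levels. GB43715, GB43713 and GB43716 lie above the line in all 6 L1 and L3 pairs (for GB43716 only after scaling, since 3 of its deposited ratios are below 1), and GB43727 lies below it in them. The 2 L5 queen pairs are far apart for GB43727, GB43713 and GB43716.

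Models with the most similar profile were sought outside the block, by Pearson's r of log2(scaled FPKM + 1) over the 10 input libraries, as a description. For GB43727 they were GB53385 on Group9.12 (r = 0.98) and GB43573 on Group14.9 (r = 0.98). GB53385 had 192 and 195 FPKM in L3 workers, against 75.3 and 92.9 FPKM in L3 queens, and 187 and 164 FPKM in L5 workers, against 71.6 and 81.7 FPKM in L5 queens. It was thus higher in workers in both instars, which the search for a similar profile favours. Its castes were less far apart at L3 than those of GB43727. For GB43728 they were GB40137 on Group13.7 (r = 0.98) and GB51273 on Group16.4 (r = 0.98). GB40137 had 12.6 and 11.5 FPKM at L1, and at L5 2043 and 2156 FPKM in workers, against 417 and 554 FPKM in queens.

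For GB43716 the closest models were GB48656 on Group5.12 and GB53888 on Group1.26 (r = 0.98 for both), and for GB43715 they were GB43464 on Group2.7 (r = 0.99) and GB43132 on Group11.20 (r = 0.98). GB43713 was closest to GB45248 on Group11.18 (r = 0.98) and GB42325 on Group1.43 (r = 0.97). Between 49 and 211 models outside the block had an r above 0.9 with a given member. None of these 10 models lies on Group14.10, and no 2 members shared 1 of them.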

How the data were processed

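The authors deposited 1 table per library, with 1 FPKM value for each of 15314 gene models on 1653 scaffolds, per the file headers. HISAT2 2.1.0 was used, per the submitters' processing notes. Not given in the sources used here are the build, the gene set and how FPKM were computed.

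Each library was scaled by a median-of-ratios factor, taken over models above 1 FPKM throughout (7511 models for the 10 input libraries, 6947 for all 20). Models whose scaled FPKM averaged 1 or more entered the fits (10119 and 10391). Log2(scaled FPKM + 1), a scale that understates changes of low models, was fitted on group means with limma 3.58.1 in R 4.3.3 (eBayes with trend), with Benjamini-Hochberg adjustment over all kept models and a threshold of 0.05. The fit was tested on simulated data. Alternatives were a pseudocount of 0.1, no filter, deposited FPKM, a weight per library, only the kinds compared, a replicate block and leaving out each library. Figures were drawn with matplotlib 3.10.9.

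The 5 members and the tests were chosen with earlier results of these data known. The models named were the members, the models inside and next to the block (3 on each side), and for each member the 2 outside models with the highest Pearson's r over the input libraries.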

Additional observations from a re-analysis of the deposited data

Results flagged for a closer look

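The change from L1 to L5 differed between workers and queens in 3 members, by the test of the difference itself, which with a shared L1 is the L5 caste test. Workers minus queens was 2.12 for GB43727, 2.16 for GB43716 and 1.46 for GB43728 (log2), with the limits given with that test.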

How the results depend on the processing

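Depth is unknown, and each group has 2 libraries. Counts of models called among all those tested were compared with those of the settings used in the report, which were 1150 for expression in L5 workers against queens, 4799 and 4768 for L5 against L1 in queens and workers, and 4601, 376, 1750 and 11 for IP over input at L1, in L5 queens, in L5 workers and between the L5 castes. The L5 caste count was 124 with a weight per library and 77 with only the kinds compared. IP over input gave 14, 376 and 0 in L5 queens, L5 workers and between L5 castes with a weight per library, and 0, 0 and 0 with only the kinds compared, where limma found 748, 1855 and 301 at an unadjusted p under 0.05, and 277 between castes with a weight per library. Without the filter these counts were 1519, 3355 and 89, and with a pseudocount of 0.1 the last was 92. Deviations of same-numbered IP and input libraries had r = 0.65 at L1, 0.16 in L3 workers against 0.63 in L3 queens, and 0.079 in L5 workers against 0.43 in L5 queens. Inputs of 2 different kinds of larvae had r of -0.026 to 0.37, below the values at L1 and in L3 and L5 queens. The low r in workers does not exclude pairs. The labels do not state them, and the main fit did not use them. With the replicate block the 7 counts, in the order given first, were 1212, 4897, 4904, 5764, 1422, 3298 and 79. Under it GB43716 passed in IP over input at L1 (limma adjusted p = 0.0353) and in L5 queens (0.0403), and GB43715 (0.0291) and GB43728 (0.0191) in L5 workers, and GB43713 passed for L5 queens against L1 (0.0264). Leaving out 1 library gave 640 to 1746 for the L5 castes, 3017 to 5312 and 3100 to 5539 for L5 against L1, and 2989 to 5028, 189 to 1352, 417 to 2318 and 3 to 258 for IP over input. With FPKM as deposited the split of higher and lower calls against L1 was 960 and 4914 for L5 queens, and for L5 workers 951 and 5164, where the main one was 2034 and 2765, and 2053 and 2715. For IP over input it was 1417 and 4207 at L1 and 1483 and 263 in L5 workers, where the main one was 2486 and 2115, and 1069 and 681.

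Over all alternatives, 676 values of members kept their direction and side of the threshold, 53 newly missed it, 11 newly passed it and 20 changed sign. Most values were of results not called at first, which could not newly miss it. Of the called ones, GB43713 in IP over input in L5 queens passed in 7 of 26 alternatives. GB43727 in L5 queens against L1 and GB43728 between L5 castes passed in 6 of 16 each, and GB43716 in L5 workers against L1 in 8 of 16. Each other call passed in at least 14 of 16 or 23 of 26. On the FPKM as deposited the sign changed for GB43727 in L5 queens against L1 (-0.0010) and for GB43716 in IP over input at L1 (-0.18) and in L5 workers (0.18). When 1 library was left out the sign changed for GB43713 in L5 workers against L1 (-0.32 to 0.16). For IP over input it did so for GB43728 at L1 (-0.19 to 0.16), in L5 queens (-0.018 to 0.65) and in L5 workers (-0.88 to 0.089), for GB43727 (-0.16 to 0.54) and GB43715 (-0.040 to 0.75) in L5 queens, for GB43713 (-0.054 to 0.44) and GB43716 (-0.16 to 0.070) in L5 workers, and for GB43715 between L5 castes (-0.35 to 0.44). The cause was not tested.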
